A study of Mus musculus with 45 samples.

Results

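The transcripts of the Dlg and Dlgap postsynaptic scaffolds were followed in the cortex, hippocampus and striatum of Shank3-mutant mice. The members were taken by name, and Dlg1, Dlg2, Dlg3, Dlg4, Dlgap1, Dlgap2, Dlgap3 and Dlgap4 are 8 of the 18135 genes in the table. RNA sequencing was available for 45 samples, which were 5 for each of WT, Shank3-HT (heterozygous) and Shank3-HM (homozygous) in each of the 3 regions, all from male C57BL/6J mice aged 13 weeks. The mutant allele is a deletion of Shank3 exons 14 to 16, carried on 1 copy in Shank3-HT and on both copies in Shank3-HM mice, and the labels list no treatment. The labels call the Shank3-HM mice knock-out and their cortical tissue prefrontal, and they do not say which samples of different regions came from the same mouse.

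Dlg1 to Dlg4 (SAP97, PSD-93, SAP102 and PSD-95) are membrane-associated guanylate kinases, which hold glutamate receptors, adhesion proteins and signaling enzymes at the postsynaptic membrane through their PDZ domains. Dlgap1 to Dlgap4 (the SAPAP or GKAP proteins) bind the guanylate kinase domain of the Dlg proteins with their repeats and the PDZ domain of Shank proteins with their C-terminus, so that they form the layer between PSD-95 and Shank. In the striatum, Dlgap3 is known as a scaffold of corticostriatal synapses whose loss in mice leads to excessive grooming.

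The coding ends of 3 Dlgap genes are shown because they encode the C-terminus that meets the Shank PDZ domain, which the exons deleted in these mice help to encode. Each line gives the last 30 coding bases before the stop codon in the transcript with the longest complete coding sequence, 5′ to 3′ on the plus strand of GRCm38 (GENCODE M21), with the last 4 codons in capitals.
Dlgap1 chr17:70818202-70818231: atctacatccccgaggcgCAGACCCGGCTC
Dlgap3 chr4:127236336-127236365: atctacatccccgaggccCAGACCAGGCTG
Dlgap4 chr2:156762871-156762900: atttatgtccccgaggccCAGACCAGGCTC
Dlgap1 and Dlgap3 share 27 of the 30 bases, Dlgap3 and Dlgap4 share 26, and Dlgap1 and Dlgap4 share 25. The capitals were the same in 8 of 10 complete coding transcripts of Dlgap1, 3 of 3 of Dlgap3 and 6 of 7 of Dlgap4. Dlgap1 and Dlgap4 were lowest in the striatum and Dlgap3 was highest there.

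All 8 genes lie on the plus strand and differ widely in size. In GRCm38, Dlg1 spans chr16:31663443-31875129, Dlg2 chr7:90476672-92449247, Dlg3 chrX:100767722-100818410 and Dlg4 chr11:70016942-70047522. Dlgap1 spans chr17:69969073-70821413, Dlgap2 chr8:14095865-14847680, Dlgap3 chr4:127169204-127237022 and Dlgap4 chr2:156613705-156764363. Dlg2 was the longest at 1973 kb and Dlg4 the shortest at 30.6 kb. Values below are per gene and sum over all transcripts, so that isoforms are not told apart.

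Levels are normalized counts that the authors made with DESeq2 over all samples. Their sums were 26118607 to 29568983 per sample, and since the values were already scaled between samples, sequencing depth cannot be read from these sums. Shank3, the targeted gene, was lower in each library with the mutant allele than in any WT library of its region. Its cortical level was 8005 ± 725 in WT mice, 6138 ± 373 with 1 mutant copy and 4054 ± 285 in Shank3-HM mice (SD, n = 5), and the 3 genotypes did not overlap in any region. Its log2 difference from WT in Shank3-HM mice was −0.98 for cortex, −1.06 for hippocampus and −1.11 for striatum, and in Shank3-HT mice −0.38, −0.43 and −0.50. The Shank3-HT difference did not pass the limma test in the cortex (adjusted p = 0.288) and lay next to the threshold in the striatum (adjusted p = 0.0494). The paper, which tested with DESeq2, lists Shank3 as downregulated in both mutant genotypes of each region, Shank3-HT cortex included.

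Marker sums told cortex and striatum apart, with 4 libraries that mixed the markers of these regions. The summed level of 8 striatal spiny neuron markers (Drd1, Drd2, Adora2a, Ppp1r1b, Rgs9, Pde10a, Penk and Tac1) was 159034 to 215760 in WT striatum and 5270 to 6167 in WT cortex. The cortex of Shank3-HM replicate 2 had a sum of 44490 for these genes, where the other 14 cortical libraries had 4770 to 6730. Its sum over 6 cortical projection neuron markers (Tbr1, Fezf2, Cux2, Rorb, Slc17a7 and Neurod6) was 29489, against 47198 to 54844 in the other cortical libraries. This cortical sum was 50580 to 54268 in WT cortex and 36533 to 46403 in WT hippocampus, so the list was high in both regions. In the striatum, the same cortical sum was 10670 in WT replicate 5, 8439 in Shank3-HT replicate 3 and 8295 in Shank3-HM replicate 1, and 1229 to 5163 in the other 12. Without these 4 libraries the counts of members called below were the same, except that Dlg4 lost its call between cortex and striatum of Shank3-HM mice. A further library, striatum Shank3-HT replicate 5, had a summed level of 67983 over 5 choroid plexus markers (Ttr, Kl, Folr1, Kcne2 and Clic6), against 444 to 1538 in the other 14 striatal libraries, and this sum ran from 1261 to 122309 in the hippocampus. In bulk tissue, fewer cells of a type and less RNA per cell cannot be told apart.

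The first question was how the scaffolds are distributed over the 3 regions of WT mice. All 8 differed between cortex and striatum and between hippocampus and striatum, and 7 differed between cortex and hippocampus (limma, adjusted p under 0.05). These counts stand beside 59.3%, 56.1% and 46.6% of all 16708 genes tested, so that a difference between regions was common among genes. The median size of a member's log2 difference was 0.41, 0.97 and 0.40 in these comparisons, and 0.33, 0.31 and 0.25 over all genes. Dlg1, Dlg2, Dlg4, Dlgap2 and Dlgap3 followed 1 order, with the striatum highest and the hippocampus lowest, and Dlg3, Dlgap1 and Dlgap4 were lowest in the striatum.

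**Figure D1:**
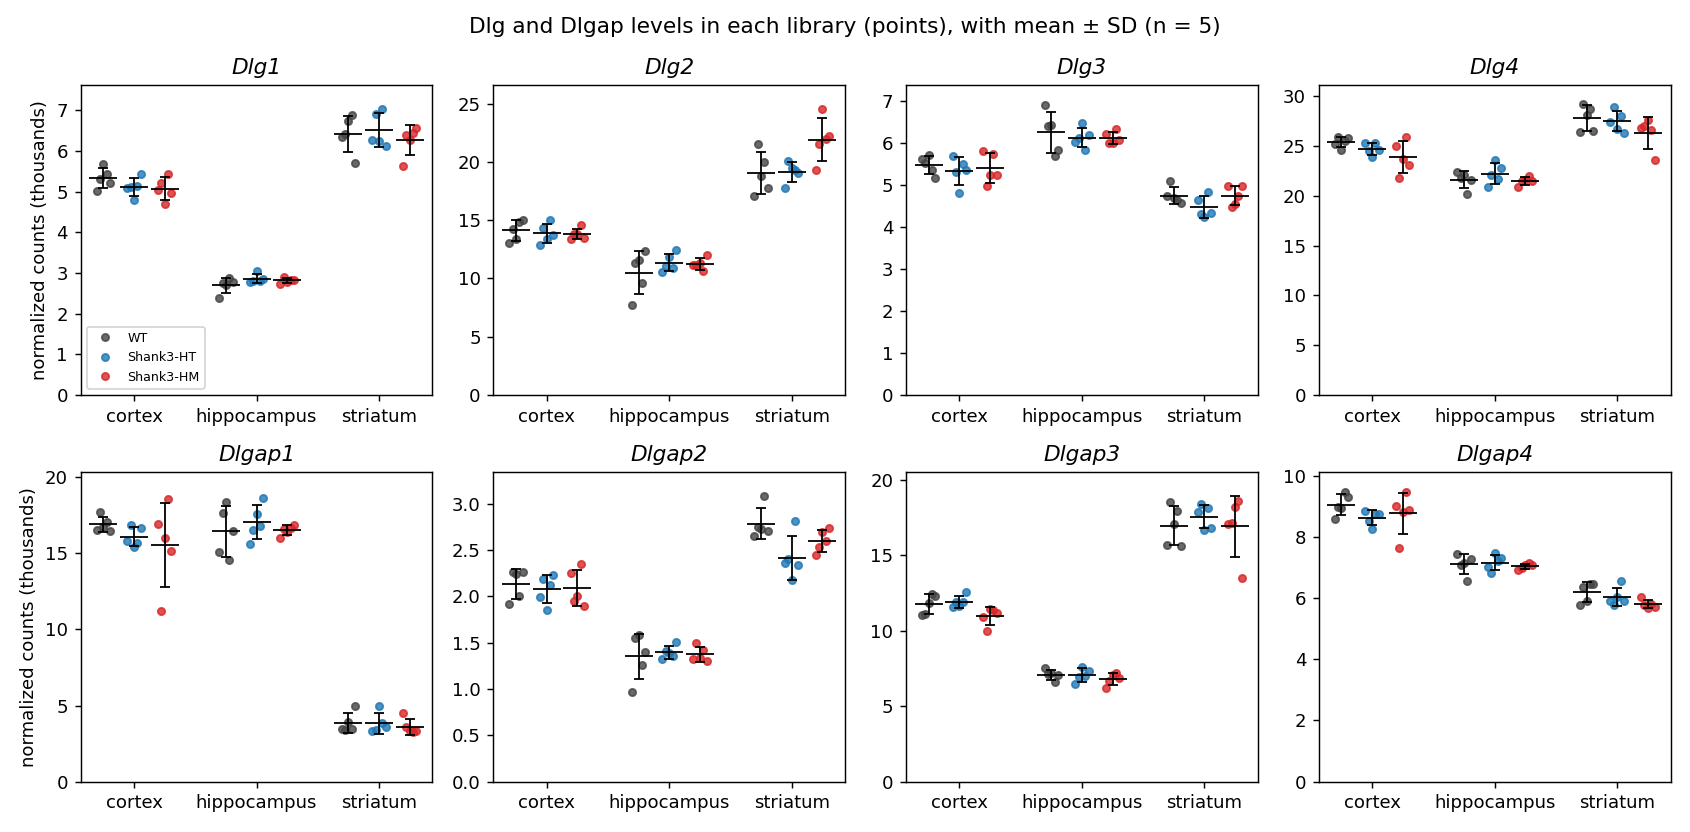
Levels of the 8 members in normalized counts (linear axes from 0) in each library, by region and genotype, with the mean and SD of 5 libraries in black. Dlgap1 in the striatum lies between 3263 and 4990, below all libraries of the other regions, and the 3 genotypes of a region largely overlap.

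Dlgap1 encodes SAPAP1, also called GKAP, and had the widest regional difference of the 8. The WT levels were 16556, 17719, 16703, 17060 and 16443 in the cortex and 15068, 17679, 18403, 14543 and 16499 in the hippocampus. In the WT striatum they were 3431, 3426, 3915, 3460 and 4989. All 5 striatal libraries lay far below those of the other regions, and cortex and hippocampus overlapped. Dlgap1 was 4.44-fold higher in cortex than in striatum (log2 difference 2.15, SE 0.103, adjusted p = 3.19e-21) and 4.31-fold higher in hippocampus than in striatum (2.11, SE 0.103, adjusted p = 2.51e-21). Cortex and hippocampus did not differ beyond their spread (0.04, 95% interval −0.16 to 0.25, adjusted p = 0.749).

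Striatal Dlgap1 was highest in the libraries with the most cortical marker RNA. The levels were 4989 in WT replicate 5, 4990 in Shank3-HT replicate 3 and 4491 in Shank3-HM replicate 1, and 3263 to 3915 in the other 12 striatal libraries. The cortex of Shank3-HM replicate 2, with its striatal markers, had 11183, against 15144 to 18537 in the other 4 libraries of its group. Without the 4 mixed libraries, the log2 difference between WT cortex and WT striatum was 2.25 (SE 0.0596). Of these libraries only striatum WT replicate 5 belongs to the groups compared. It had the highest WT striatal Dlgap1, so leaving it out could only widen the difference. The part of these marker differences in the spread of Dlgap1 within a region was not tested.

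**Figure D2:**
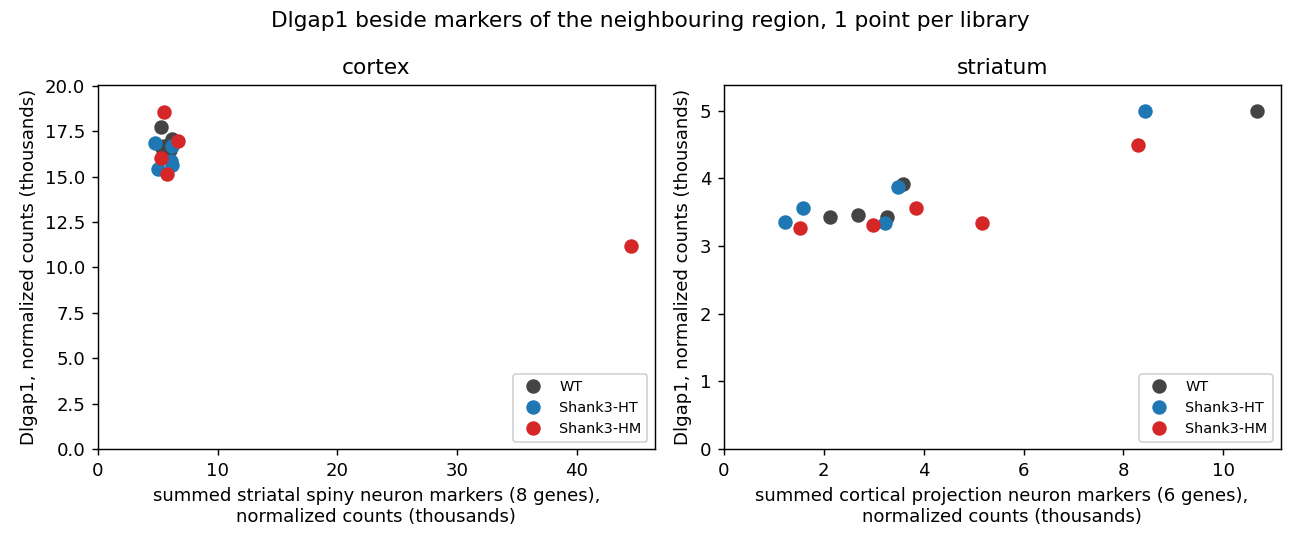
Dlgap1 (normalized counts, linear axis from 0) against the summed level of striatal markers in the cortex (left) and of cortical markers in the striatum (right), with 1 point per library coloured by genotype. The cortical library at 44490 striatal marker counts has the lowest cortical Dlgap1, 11183, and the 3 striatal libraries with cortical sums of 8295 to 10670 have the highest striatal Dlgap1.

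Dlgap3 encodes SAPAP3 and ran the opposite way. Its WT levels were 15708, 18524, 17072, 17946 and 15601 in the striatum, 11064, 11089, 11863, 12427 and 12336 in the cortex, and 7536, 7113, 7189, 6596 and 7061 in the hippocampus. The 3 regions did not overlap. Dlgap3 was 2.39-fold higher in striatum than in hippocampus (log2 difference −1.26 for hippocampus minus striatum, SE 0.0613, adjusted p = 2.50e-21), 1.44-fold higher in striatum than in cortex (−0.53 for cortex minus striatum, adjusted p = 6.70e-10) and 1.66-fold higher in cortex than in hippocampus (0.73, adjusted p = 2.27e-13). Shank3 itself was 1.54-fold higher in WT striatum than in WT cortex (adjusted p = 2.27e-11), with a difference between cortex and hippocampus of 0.01 (95% interval −0.12 to 0.14).

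Dlgap2 and Dlgap4 are the remaining GKAP-type adaptors, and they also parted. Dlgap2, the least abundant member by normalized count, had WT levels of 2655, 2750, 2721, 3080 and 2710 in the striatum, 1916, 2258, 2238, 2004 and 2263 in the cortex and 972, 1546, 1578, 1263 and 1398 in the hippocampus. Its regions did not overlap, and the striatum was 2.09-fold above the hippocampus (−1.06 for hippocampus minus striatum, SE 0.0833, adjusted p = 1.15e-14). Dlgap4 was highest in the cortex, at 9049 ± 342 (SD, n = 5), followed by 7102 ± 328 in the hippocampus and 6197 ± 329 in the striatum. Its cortex was 1.46-fold above its striatum (0.55, SE 0.0435, adjusted p = 1.83e-14). The smaller step of Dlgap4 from hippocampus to striatum also passed the test (0.20, adjusted p = 0.000161).

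Dlg1 encodes SAP97, which is involved in the delivery of AMPA receptors, and was low in the hippocampus. Its WT levels were 6352, 6414, 6726, 6878 and 5701 in the striatum, 5021, 5310, 5673, 5430 and 5201 in the cortex and 2387, 2745, 2692, 2873 and 2784 in the hippocampus. The hippocampal libraries lay far below the others, and the lowest striatal library was just above the highest cortical one. Dlg1 was 2.38-fold lower in hippocampus than in striatum (−1.25, SE 0.0513, adjusted p = 6.53e-24) and 1.98-fold higher in cortex than in hippocampus (0.98, adjusted p = 6.82e-20). The difference between cortex and striatum was smaller (−0.27, adjusted p = 2.01e-05).

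Dlg2 encodes PSD-93, a partner of NMDA receptors and potassium channels, and had the same order as Dlg1. The WT levels were 17049, 21564, 18770, 20042 and 17809 in the striatum, 13026, 14260, 13429, 14889 and 15026 in the cortex and 7689, 11366, 11569, 9611 and 12321 in the hippocampus. No region overlapped another, although the hippocampal values were wide. The log2 difference was −0.87 between hippocampus and striatum (SE 0.0777, adjusted p = 5.11e-13) and −0.43 between cortex and striatum (adjusted p = 7.56e-06). Hippocampal WT replicate 1 was the lowest of its group for Dlg1, Dlg2 and Dlgap2 and the highest for Dlg3, Dlg4, Dlgap3 and Dlgap4. It had the lowest sum of hippocampal neuron markers of the WT group, 20868, where the others had 26080 to 29624. It also had the highest sum of cortical projection neuron markers of the group, 46403, a list that was high in all hippocampal libraries. WT replicate 4 was the lowest of the group for Dlg3, Dlg4, Dlgap1, Dlgap3 and Dlgap4, with its highest choroid plexus sum, 122309, and its lowest cortical marker sum, 36533, and the part of these markers in the values was not tested.

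Dlg4 encodes PSD-95, the most abundant scaffold of excitatory synapses, and was the most even of the 8 in log2 terms. It stood at 27819 ± 1279 in WT striatum, 25408 ± 536 in WT cortex and 21631 ± 856 in WT hippocampus (SD, n = 5). The striatum was 1.29-fold above the hippocampus (−0.36 for hippocampus minus striatum, adjusted p = 1.62e-09) and 1.09-fold above the cortex (−0.13 for cortex minus striatum, SE 0.0435, adjusted p = 0.00963). Dlg3, the X-linked gene of SAP102, was the Dlg member with the hippocampus highest, at 6241 ± 491, against 5468 ± 220 in the cortex and 4736 ± 206 in the striatum. Its hippocampus passed the test against the striatum (0.40, adjusted p = 6.15e-09) and against the cortex (−0.19 for cortex minus hippocampus, adjusted p = 0.00184), and the latter was the called difference of the members whose libraries overlapped. Among all genes, 46.3% did not overlap between WT cortex and striatum, 32% between cortex and hippocampus and 38.5% between hippocampus and striatum, against 8, 6 and 8 of the 8 members.

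Levels between genes were compared per kilobase of the longest annotated transcript. Dlg4 was highest in each WT region, with 4016 ± 84.8 normalized counts per kilobase for cortex, 3419 ± 135 for hippocampus and 4398 ± 202 for striatum (SD, n = 5). In the striatum Dlgap3 came next, with 4034 ± 311, and Dlgap1 came last, with 536 ± 93.7. Of the summed Dlgap level per kilobase, the part of Dlgap3 was 37.3% for cortex, 29.4% for hippocampus and 62.4% for striatum, and that of Dlgap1 was 31.5%, 39.9% and 8.29%. The longest annotated Dlg4 transcript has 8 exons, and the one with the longest coding sequence has 22. With the length of the transcript with the longest coding sequence, the Dlgap3 share was 31.7%, 24.1% and 58.9% and the Dlgap1 share 40.7%, 49.9% and 11.9%. With the median length of protein-coding transcripts, the Dlgap3 share was 20.9%, 15.7% and 42.2%, the Dlgap1 share 33.4%, 40.5% and 10.6%, and Dlgap4 took the largest Dlgap share in cortex and hippocampus, with 41.6% and 40.7%. With both of these other lengths Dlg4 kept its first place, Dlgap1 stood above Dlgap3 in the cortex, and Dlgap2, not Dlgap1, was last in the striatum.

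**Figure D3:**
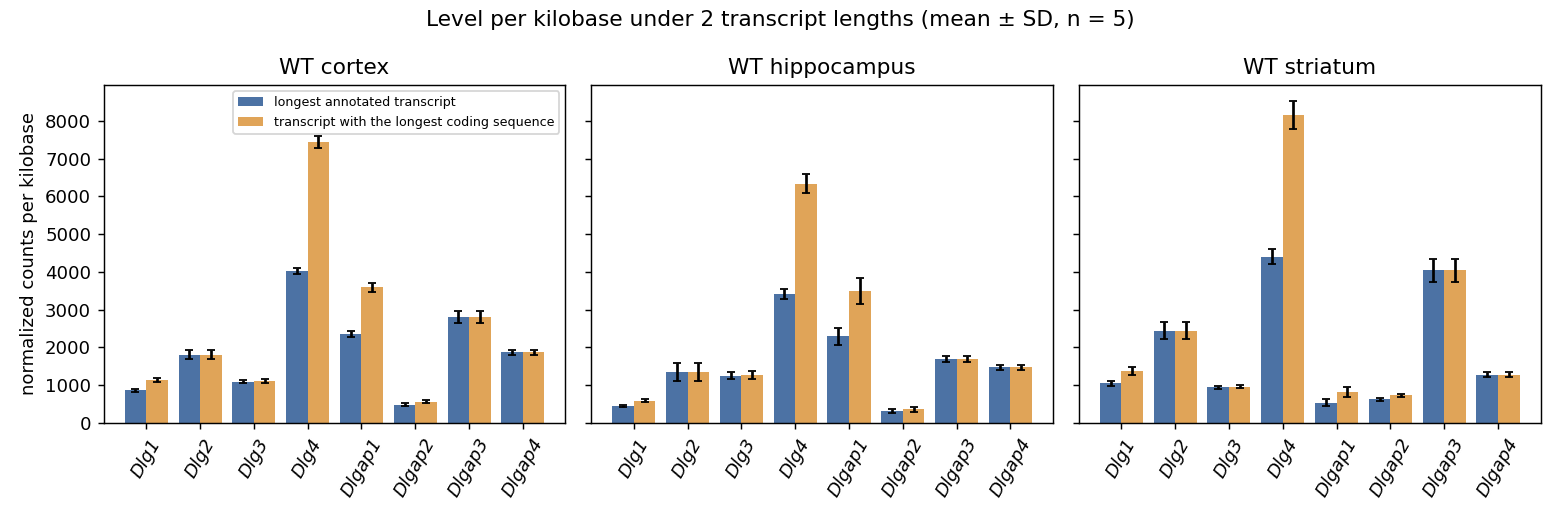
Normalized counts per kilobase (linear axis from 0) of the 8 members in the 3 WT regions, for 2 choices of transcript length, with bars at the mean and error bars of 1 SD over 5 libraries. Dlg4 is highest throughout, and the Dlgap3 bar exceeds the Dlgap1 bar in the striatum under both lengths.

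The regional pattern was then examined within the mutant genotypes. In Shank3-HT mice 8 members differed between cortex and striatum, 7 between cortex and hippocampus and 8 between hippocampus and striatum, and the counts in Shank3-HM mice were also 8, 7 and 8. Over all genes the shares were 58.6%, 45% and 53.6% in Shank3-HT and 57.4%, 42.2% and 54.8% in homozygous mice. The Dlg4 call between cortex and striatum of Shank3-HM mice (−0.14, adjusted p = 0.00579) was lost without the 4 mixed libraries (−0.10, adjusted p = 0.0634), with only those groups in the fit (adjusted p = 0.102) and under quantile normalization (−0.03, adjusted p = 0.330). The Dlgap2 call between cortex and striatum of Shank3-HT mice (−0.22, adjusted p = 0.0245) was lost without cortex replicate 1 (adjusted p = 0.0518), cortex replicate 3 (0.0845) or striatum replicate 4 (0.110). Dlgap1 was the member not called between cortex and hippocampus in each genotype. Each called member had the direction it had in WT mice. The Dlgap1 log2 difference between cortex and striatum, 2.15 in WT, was 2.09 in Shank3-HT and 2.10 in homozygous mice, and that of Dlgap3 between hippocampus and striatum was −1.26, −1.31 and −1.31.

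**Figure D4:**
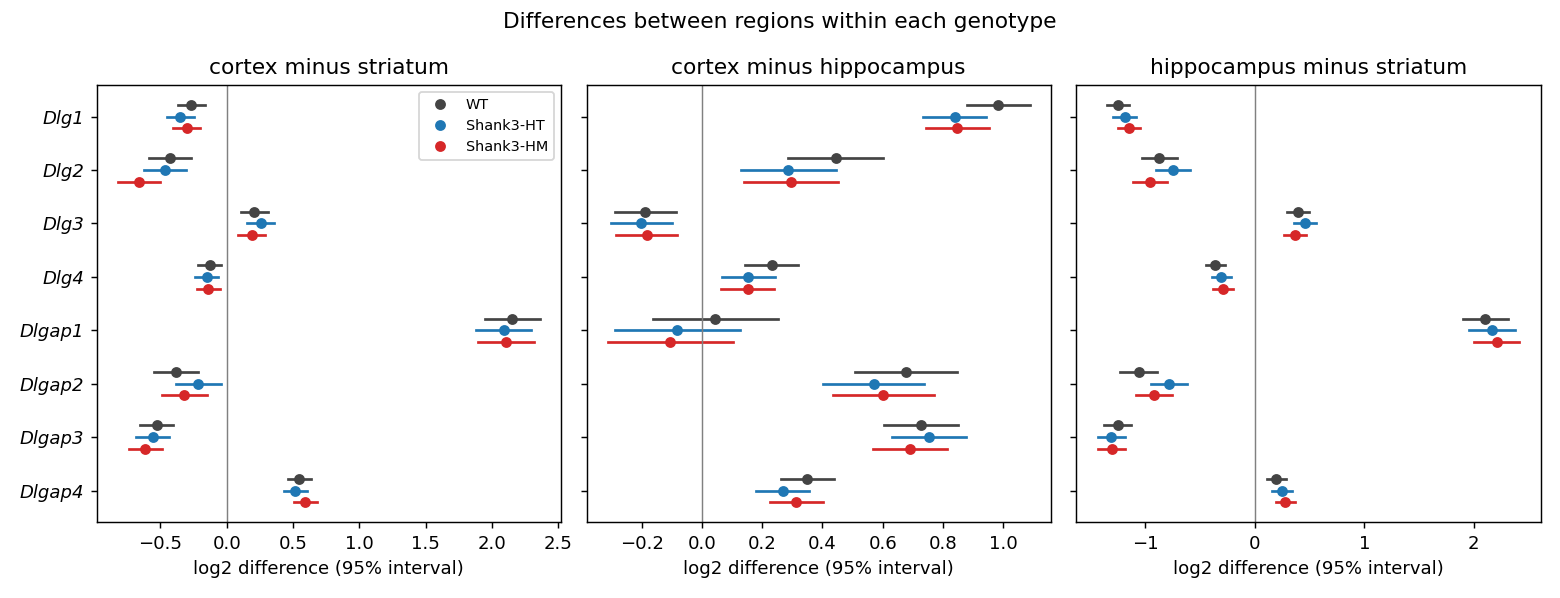
Log2 differences between regions (x axis, 95% intervals as lines) for the 8 members, coloured by genotype. Dlgap1 stands near 2 in both comparisons with the striatum in all genotypes, and Dlg1, Dlg2, Dlg4, Dlgap2 and Dlgap3 are negative there.

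The second question was whether loss of Shank3 exons 14 to 16 changed the transcripts of its scaffold partners. None of the 8 members passed the test in any of the 6 comparisons with WT or the 3 between Shank3-HM and Shank3-HT mice (limma, adjusted p over all genes). For the 6 comparisons with WT, the background was 0% of genes for Shank3-HT and 0.0121% for Shank3-HM in the cortex, 0.00603% for each in the hippocampus, and 0.00607% and 0.182% in the striatum. Between the mutant genotypes it was 0.00606% for cortex, 0.00603% for hippocampus and 0.14% for striatum. At an unadjusted p under 0.05, 2 of the 48 values against WT passed, Dlgap2 in Shank3-HT striatum and Dlg2 in Shank3-HM striatum. The share of all genes below that p was 2.68% for Shank3-HT and 5.49% for Shank3-HM in the cortex, 5.26% and 4.73% in the hippocampus, and 7.43% for each in the striatum. Between Shank3-HM and Shank3-HT mice, Dlgap3 in the cortex and Dlg2 in the striatum passed it, beside 4.87% of all genes for cortex, 2.09% for hippocampus and 6.49% for striatum. Calls were few among all genes, so that an adjusted p above the threshold does not show that levels were equal.

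The intervals give the sizes that these data leave possible. Over the 8 members, the 95% intervals of the log2 difference from WT ran from −0.27 to 0.13 in Shank3-HT cortex, −0.34 to 0.12 in Shank3-HM cortex, −0.14 to 0.33 in Shank3-HT hippocampus, −0.17 to 0.32 in Shank3-HM hippocampus, −0.34 to 0.25 in Shank3-HT striatum and −0.35 to 0.35 in Shank3-HM striatum. In percent of the WT level, the Shank3-HM intervals ended at −20.7% and 8.56% in the cortex and at −21.4% and 27.2% in the striatum. Shank3 differed by −0.98 to −1.11 in these mice, outside all of these member intervals.

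**Figure D5:**
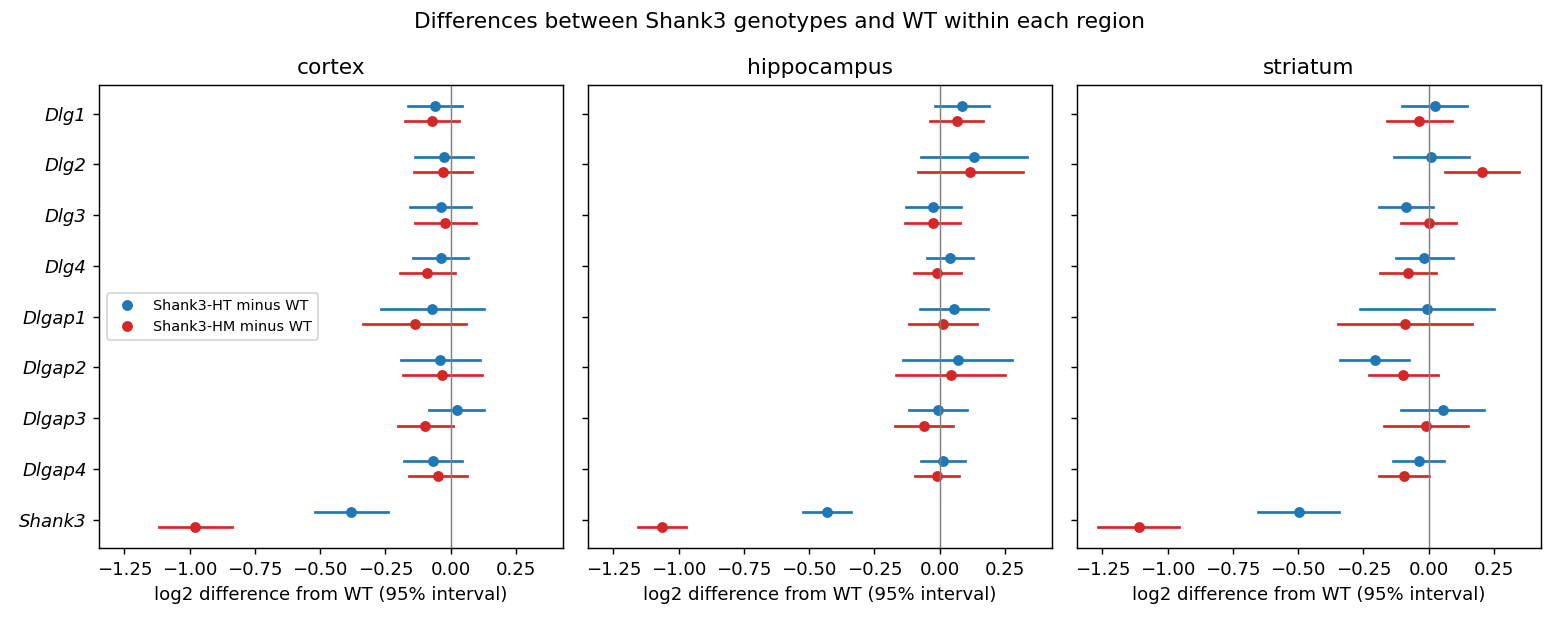
Log2 differences from WT (x axis, 95% intervals as lines) of the 8 members and of Shank3 in Shank3-HT and Shank3-HM mice, by region. The Shank3 intervals lie below 0 in each panel, and those of the members include 0 except for Dlg2 in Shank3-HM striatum and Dlgap2 in Shank3-HT striatum.

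Dlg2 in the striatum was the member nearest to a change in Shank3-HM mice. The levels were 17049, 21564, 18770, 20042 and 17809 in WT and 17733, 20060, 19483, 19279 and 19054 in Shank3-HT mice. The Shank3-HM values were 19339, 21570, 24518, 22000 and 22241. The Shank3-HM libraries lay toward the top, and they overlapped with both other genotypes. The difference from WT was 0.20 on the log2 scale (SE 0.0679, 95% interval 0.06 to 0.35, unadjusted p = 0.00771, adjusted p = 0.432), and that from Shank3-HT was 0.19 (adjusted p = 0.551). The effect in the cortex minus that in the striatum was −0.24, which did not pass the test of the difference between regions (unadjusted p = 0.0382, adjusted p = 0.890).

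Dlgap2 in the striatum had levels of 2655, 2750, 2721, 3080 and 2710 in WT and 2357, 2398, 2176, 2808 and 2339 in Shank3-HT mice. The Shank3-HM values were 2444, 2530, 2693, 2595 and 2738. In Shank3-HT mice 4 of 5 libraries lay below all WT libraries, and 1 was above 4 of them. The log2 difference of Shank3-HT from WT was −0.21 (SE 0.0622, 95% interval −0.34 to −0.08, unadjusted p = 0.00389, adjusted p = 0.605), and that of Shank3-HM was −0.10 (adjusted p = 0.800). The oligodendrocyte marker sum (Mbp, Mog, Mag, Mobp, Cnp and Ermn) was 146474 to 248322 in Shank3-HT striatum and 136939 to 177478 in WT striatum, and its part in the Dlgap2 values was not tested. Without Shank3-HT replicate 5, the library with choroid plexus markers, the Dlgap2 difference was −0.20 (adjusted p = 0.857). Between hippocampus and striatum, the Shank3-HT effect on Dlgap2 differed by 0.28 (unadjusted p = 0.0241, adjusted p = 0.855). Over the alternatives this value ran from 0.16 to 0.34. The hippocampal part of it, 0.07, was −0.045 without hippocampal WT replicate 1.

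The remaining striatal values showed small differences and wide overlap. Dlgap4 was 5778, 6362, 5910, 6464 and 6471 in WT and 6019, 5784, 5687, 5791 and 5723 in Shank3-HM striatum. In Shank3-HM mice 2 libraries lay below all WT libraries and the other 3 within the WT range (−0.09, 95% interval −0.19 to 0.0030, adjusted p = 0.693). Dlgap3, the gene with most transcript in this region among the Dlgap members, was 15708, 18524, 17072, 17946 and 15601 in WT and 17111, 17160, 18229, 18604 and 13506 in Shank3-HM striatum. Apart from replicate 5, these libraries lay in the upper part of the WT range or just above it. The difference was −0.01 (95% interval −0.17 to 0.15, adjusted p = 0.989), and it was 0.07 without replicate 5. Replicate 5 was also the lowest Shank3-HM library for Dlg4, which was 26849, 27041, 27597, 26597 and 23599 in Shank3-HM and 26465, 29222, 28150, 28761 and 26496 in WT striatum (−0.08, 95% interval −0.19 to 0.03, adjusted p = 0.800). Without replicate 5 of Shank3-HM the Dlg4 difference was −0.04. Dlgap1 differed by −0.09 (95% interval −0.35 to 0.16), the widest interval of the 8, and Dlg3 by −0.00025 (−0.10 to 0.10). In Shank3-HT striatum Dlg3 was 4646, 4291, 4231, 4819 and 4316, below or within the WT range of 4555 to 5088 (−0.09, adjusted p = 0.744).

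In the cortex, Dlg4 was 25209, 25897, 24575, 25554 and 25804 in WT and 25337, 24520, 23936, 25285 and 24597 in Shank3-HT mice. The Shank3-HM values were 25035, 21814, 23705, 25969 and 23079. The mixed library, replicate 2, was the lowest. The difference of Shank3-HM from WT was −0.09 (95% interval −0.19 to 0.02, adjusted p = 0.879). Dlg1 had cortical means of 5327, 5107 and 5071 in WT, heterozygous and homozygous mice, with SDs of 245, 227 and 276. Dlg2 and Dlgap2 differed by −0.03 each in Shank3-HM cortex.

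All 8 members had point estimates below 0 in Shank3-HM cortex, with a median log2 difference of −0.06 beside −0.0025 over all genes. In Shank3-HT cortex all members but Dlgap3 were also below 0, and in Shank3-HM striatum all but Dlg2. The differences in Shank3-HM cortex were small, from −0.02 for Dlg3 to −0.14 for Dlgap1, and each interval included 0. Without the 4 mixed libraries, which removes replicate 2 from this group, Dlgap1 stood at −0.02, Dlgap3 at −0.06 and Dlg4 at −0.06, and Dlg3 and Dlgap4 were no longer below 0. Dlg1 went from −0.07 to −0.08, Dlg2 stayed at −0.03, and Dlgap2 went from −0.03 to −0.01. Over all alternatives Dlg1 ran from −0.10 to −0.04 and Dlg2 from −0.06 to 0.0066 in this group. Cortical Dlgap3 was 10950, 10014, 11426, 11389 and 11166 in Shank3-HM and 11611, 11893, 11654, 11889 and 12588 in Shank3-HT mice. These groups did not overlap, as was the case for 0.727% of all genes in this comparison, and the difference of −0.12 did not pass the test (adjusted p = 0.959). Shank3-HM and WT overlapped for Dlgap3 (−0.10, 95% interval −0.20 to 0.01, adjusted p = 0.878).

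In the hippocampus none of the members had an unadjusted p under 0.05. Median log2 differences from WT were 0.05 in Shank3-HT and 0.0013 in homozygous mice, beside 0.0056 and 0.0037 over all genes, and without WT replicate 1 the member medians were 0.02 and 0.0052. Dlg2 had the widest differences, 0.13 in Shank3-HT (adjusted p = 0.926) and 0.12 in homozygous mice (adjusted p = 0.920), and its WT group held the low replicate 1. Without that library these differences were 0.02 and 0.0092, and Dlg2 was no longer the widest. Dlg4 differed by −0.01 in Shank3-HM hippocampus (95% interval −0.10 to 0.08), and Dlgap1 by 0.01 (−0.12 to 0.14). Of the 48 tests of whether a genotype effect differed between regions, none passed for the members (limma), and 2 had an unadjusted p under 0.05, those of Dlg2 and Dlgap2 given above. Among all genes the Shank3-HT effect differed in 0% for each pair of regions, and the Shank3-HM effect in 0.0539% between cortex and striatum, 0% between cortex and hippocampus and 0.0718% between hippocampus and striatum. Without adjustment these shares were 3.46% between cortex and striatum, 3.35% between cortex and hippocampus and 5.6% between hippocampus and striatum for Shank3-HT, and 5.42%, 4.45% and 5.37% for Shank3-HM mice.

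Partners of the scaffolds were examined as a list of 56 genes, of which 55 were tested in most comparisons. They were 16 further scaffold proteins (among them the Shank and Homer families), 9 glutamate receptor subunits and auxiliary subunits, 10 adhesion proteins and ligands, 9 signaling proteins, 6 enzymes of palmitoylation and 6 relatives in cell polarity. Shank3 was the partner called in 8 of the 9 genotype comparisons, and none was called in Shank3-HT cortex. Its call in Shank3-HT striatum (limma adjusted p = 0.0494) was lost without the 4 mixed libraries (adjusted p = 0.296), and in 9 of the 10 fits that left out a replicate. The call was kept with the replicate number as a block (limma adjusted p = 0.0034). At an unadjusted p under 0.05, the partners that passed in Shank3-HT and Shank3-HM mice against WT were 2 and 5 of 55 in the cortex, 5 and 3 of 55 in the hippocampus and 4 and 9 of 56 in the striatum, Shank3 included each time, beside 2.68%, 5.49%, 5.26%, 4.73%, 7.43% and 7.43% of all genes. Between Shank3-HM and Shank3-HT mice they were 5, 1 and 7 in these regions, again with Shank3, beside 4.87%, 2.09% and 6.49% of all genes. Among WT regions, 39 of 55 partners differed between cortex and striatum, 44 between cortex and hippocampus and 39 between hippocampus and striatum, beside 59.3%, 46.6% and 56.1% of all genes.

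The partners with the widest regional difference of each role are given with their fold. Homer3, a scaffold that links Shank to metabotropic glutamate receptors, was 9.26-fold lower in WT cortex than in WT hippocampus, and Tanc1, a PSD-95-binding scaffold, was 8.47-fold higher in hippocampus than in striatum. Akap5, the anchor of protein kinase A and calcineurin, was 5.46-fold lower in hippocampus than in striatum. Gria1, an AMPA receptor subunit, was 3.22-fold lower in cortex than in hippocampus, and Cacng3, an auxiliary subunit of AMPA receptors, was 3.23-fold higher. Nos1, the neuronal nitric oxide synthase that binds PSD-95, and Lrrtm1, a synaptic adhesion protein, were 2.68-fold and 2.44-fold lower in cortex than in hippocampus. Lrrc4c, the netrin-G ligand NGL-1, was 2.02-fold lower in hippocampus than in striatum. Zdhhc8, a palmitoyltransferase, was 2.25-fold higher in cortex than in striatum, and Abhd17c, a depalmitoylating enzyme, was 1.77-fold lower in cortex than in hippocampus. Dlg5, a distant relative of the Dlg genes, was 2.23-fold higher in hippocampus than in striatum, and Lin7a, a PDZ adaptor, 2.13-fold higher in cortex than in hippocampus (limma, adjusted p at most 1.85e-10 for these partners).

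Among 12473 other genes, the closest in pattern to each member was sought by the root mean square difference of log2 values, centred on each gene's own mean, over the 45 samples. The samples share regions, and the likeness is a description. Closest to Dlgap1 were Sobp (0.11), Cdk14 (0.13) and Homer2 (0.16), where the median gene stood at 1.04. Dlgap3 was closest to Lrtm2, Ckb and Mgat5b (0.12 to 0.13, median gene 0.58), Dlgap2 to Kcnq5, Tbl1x and Fzd3 (0.11 to 0.13, median 0.46), and Dlgap4 to Ank2, Git1 and Tcf25 (0.06 to 0.08, median 0.33). For the Dlg genes they were Tacc1, Slc25a37 and Znfx1 with Dlg1 (0.10 to 0.12, median 0.56), Cd47, Mbnl1 and Dnm3 with Dlg2 (0.11 to 0.12, median 0.44), Stx12, Ywhab and Ube2q1 with Dlg3 (0.06 to 0.07, median 0.30) and Gabbr1, Spop and Tesk1 with Dlg4 (0.06 to 0.07, median 0.27). Between members, Dlg1 and Dlgap3 were the closest pair (0.16), followed by Dlg2 and Dlgap2 (0.17).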

How the data were processed

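Stranded mRNA libraries were quantified by the authors with Salmon 1.1.0 and GC bias correction against GRCm38, and the estimates were imported with tximport and normalized with DESeq2 (1.26.0 under R 3.6.2 in the submitters' processing notes). The deposited values, of the unit signal, are normalized counts per gene. They are not whole reads, so count models were not applied and depth and counting error are unknown. At most 53.4% of the values under 5 in a sample lay within 0.05 of a whole multiple of the best step. For a step fixed in advance 10% would by chance, and the best of many steps can reach more.

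Columns coded KI were taken as the labels' knock-out, Shank3-HM. Of the 18135 gene IDs, 18120 matched a symbol in GENCODE M21. Values were transformed as log2(value + 1), so that fold changes are on that scale. Genes with a mean of at least 10 were fitted in limma 3.58.1 (lmFit, eBayes with trend, R 4.3.3), with 3 genotypes per region (cortex 16507, hippocampus 16571 and striatum 16482 genes) and with 9 groups for regions and interactions (16708 genes). Tests were two-sided, with Benjamini-Hochberg adjustment over all genes tested and a threshold of 0.05. The script was tested on simulated data. P values measure the spread between samples labelled as replicates.

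Named were the 8 members, Shank3, the 2 partners per role with the largest called WT regional difference, and the 3 closest genes in pattern. The members and lists were chosen with earlier results of these data known. Regional tests within the mutant genotypes were added after seeing the data. Alternatives were no intensity trend, quantile normalization, no filter, a minimum mean of 100, a smaller pseudocount (0.1), a replicate block, the 2 groups compared alone, and leaving out each replicate in turn. Python 3.11.15, numpy 2.4.6, pandas 2.3.3 and matplotlib 3.10.9 were used. Some genes of the marker lists are not reported here and were left out of the marker sums.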

Additional observations from a re-analysis of the deposited data

Results flagged for a closer look

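The lowest or highest of 5 libraries stood apart from the rest of its group by Dixon's test (critical value 0.71) in 4 of 72 groups of member values, where chance gives about 1 in 20. Dlg4 in Shank3-HM striatum was 23599 in replicate 5, against 26597 to 27597 in the others. The same library had the lowest Dlgap3, 13506, against 17111 to 18604. Dlgap1 in Shank3-HM striatum was 4491 in replicate 1, against 3263 to 3561, and this library had the highest cortical marker sum of its group, 8295. Dlgap2 in WT striatum was 3080 in replicate 4, against 2655 to 2750.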

How the results depend on the processing

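Under all alternatives run, also those that left out each replicate in turn, 0 members were called in each genotype and interaction comparison and 8, 7 and 8 between WT regions. Within the mutant genotypes 1 call between cortex and striatum was lost in each, Dlg4 in Shank3-HM and Dlgap2 in Shank3-HT mice, under the alternatives given with them above. The replicate numbers were not taken as pairs, since the labels tie no samples to 1 mouse, and the main tests took all libraries as independent. Same-numbered samples correlated over 0.1 in 1 of 15 pairs in the cortex, 2 of 15 in the hippocampus and 5 of 15 in the striatum. Differently numbered samples did so in 3, 13 and 7 of 60 pairs. Between regions, 16 of 45 same-numbered pairs and 5 of 180 differently numbered pairs were over 0.1 (median r 0.067 and −0.018). This is a hint from the data that numbers may be shared between regions. The replicate block changed no call of a member, and gave Dlg2 in Shank3-HM striatum an adjusted p of 0.177 (limma). Over all alternatives that adjusted p ran from 0.177 to 0.713, and that of Dlgap2 in Shank3-HT striatum from 0.0984, without Shank3-HT replicate 4, to 0.963. Among all genes, the 30 calls in Shank3-HM striatum became 18 without the intensity trend, and the 23 between Shank3-HM and Shank3-HT striatum became 11 without the trend, 7 with only those groups and 15 without the 4 mixed libraries. The 9 calls for the Shank3-HM effect in cortex against striatum became 20 under the block and 17 without the 4 libraries. The Shank3 call in Shank3-HT striatum was lost without the trend (log2 difference −0.50, adjusted p = 0.177), without the filter (0.0504), with a pseudocount of 0.1 (0.0511), without the 4 libraries (−0.51, 0.296) and in 9 of 10 fits without a replicate. It was kept under the replicate block, with a lower adjusted p than in the main fit (limma, 0.0034).

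Directions reversed only for differences that no fit called. Under quantile normalization these were Dlg2 in Shank3-HM cortex (0.0066), Dlg2 in Shank3-HT striatum (−0.0010) and Dlgap1 between WT cortex and hippocampus (−0.060). Without the 4 libraries, an alternative chosen after seeing the data, they were Dlg3 (0.0091) and Dlgap4 (2.8e-06) in Shank3-HM cortex, and Dlg1 (−0.0035) and Dlg2 (−0.020) in Shank3-HT striatum. Leaving out 1 replicate gave these ranges of the log2 difference from WT. In Shank3-HM cortex it was −0.048 to 0.0091 for Dlg3, −0.077 to 0.00017 for Dlgap2 and −0.077 to 2.8e-06 for Dlgap4. In Shank3-HT cortex it was −0.054 to 0.00042 for Dlg2 and −0.078 to 0.00017 for Dlgap2. In Shank3-HM hippocampus it was −0.059 to 0.010 for Dlg3, −0.033 to 0.0047 for Dlg4, −0.031 to 0.053 for Dlgap1, −0.071 to 0.10 for Dlgap2 and −0.039 to 0.0057 for Dlgap4. In Shank3-HT hippocampus it was −0.058 to 0.011 for Dlg3, −0.045 to 0.13 for Dlgap2, −0.032 to 0.028 for Dlgap3 and −0.015 to 0.031 for Dlgap4. In Shank3-HM striatum it was −0.077 to 0.0026 for Dlg1, −0.018 to 0.026 for Dlg3, −0.17 to 0.0061 for Dlgap1 and −0.046 to 0.069 for Dlgap3. In Shank3-HT striatum it was −0.019 to 0.049 for Dlg1, −0.029 to 0.056 for Dlg2, −0.034 to 0.0019 for Dlg4 and −0.11 to 0.090 for Dlgap1. The cause of these changes was not tested. Per kilobase, 11 of 24 WT levels moved by more than 1 SD with the transcript of the longest coding sequence and 21 with the median length of protein-coding transcripts, and Dlg4 stayed first in each region. Over the 9 group means, each of the 8 lists of closest genes changed in at least 1 gene. Depth is unknown, and 5 samples per group left member intervals up to −21.4% and 27.2% wide of WT in Shank3-HM striatum.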
